A study of Homo sapiens with 36 samples.

Results

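The comparison set NC day 11, the end of a neural crest differentiation course of human embryonic stem cells, against day 0, the stem cells from which the course began. Its members are the 3 arrays whose source label gives NC and day 11 and the 3 arrays whose source label gives day 0, 6 of the 36 arrays of the series, and all 22848 genes that passed the detection filter were tested between them. The cells were WA09, an established human embryonic stem cell line, expanded on mouse embryonic fibroblast feeders in medium with FGF2 and moved to matrigel to differentiate. Their RNA was hybridised to Illumina expression beadchips, with 12 groups of 3 arrays in the series.

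NC cultures received 100 nM LDN-193189, an inhibitor of type I bone morphogenetic protein (BMP) receptors, 10 µM SB431542, an inhibitor of the receptors for activin, Nodal and TGF-beta, and 3 µM CHIR 99021, a GSK3 inhibitor that activates WNT signalling. The day 0 labels name LDN-193189 and SB431542 and no condition, and do not say if these compounds were given before collection. The time in culture differed between the groups along with the compounds, and the culture medium and the matrix may have differed too. The parts of these factors cannot be told apart. For reference the text also uses DSi day 11 (3 arrays), which had both receptor inhibitors at these doses without CHIR 99021, and BE day 11 (3 arrays), which had 25 ng/ml BMP4 and, at 100 nM, endothelin 3 on top of the 3 NC compounds. The titles of the DSi day 11 arrays carry the suffix wd, whose meaning could not be worked out. The days on which each compound was present are not given here, so presence up to collection is not implied. All groups come from 1 cell line, and the labels do not say whether replicates were separate cultures, so the p-values describe how these arrays vary, and that variation may be technical.

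Neural crest cells arise at the border of the neural plate, leave the epithelium of the dorsal neural tube, migrate, and form sensory and autonomic neurons, glia, pigment cells and parts of the facial skeleton. WNT, BMP and FGF signals set up the border, border factors such as MSX1, PAX3 and TFAP2A switch on specifiers such as SOX10 and SNAI2, and the proneural factor NEUROG1 with POU4F1 and ISL1 mark the sensory branch. Pluripotent stem cells, in contrast, form a polarised epithelium that depends on FGF and Nodal signalling and on POU5F1, SOX2 and NANOG.

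The arrays of a group resembled each other more than the other group: over log2 values of all genes the correlation was at least 0.977 within a group and at most 0.913 between day 0 and NC day 11, and each of the 6 arrays was closest to an array of its own group. Mean signals of the arrays ran from 304.8 to 391.1, with 17451 to 19516 probes detected. The stem cell label of day 0 went with detection of all 6 stem cell markers. Their summed linear signal lay between 13829 and 15773 at day 0 and between 4344 and 4880 at NC day 11. Of these 6 markers 5 were lower at NC day 11, where NANOG and PRDM14 were undetected. The other, LIN28A, did not pass the test, and with a log2 mean of 11.87 it made up most of the NC day 11 sum. Of 8 neural crest markers 7 were higher at NC day 11, with a summed signal of 390 to 441 at day 0 and 3865 to 4867 at NC day 11, and none was lower. The same arrays also held 6 of 7 sensory neuron markers and 6 of 6 neuron markers above day 0, and some markers of other lineages were higher too. Of 6 placode markers tested 4 were higher, with a summed signal of 146 to 150 at day 0 and 1858 to 2860 at NC day 11, and of 6 melanocyte markers 5, with 333 to 428 and 2651 to 4168. Of 4 glia and Schwann markers tested 2 were higher and 1 lower, with 522 to 575 and 2242 to 2712. Of 7 forebrain markers 2 were higher and 0 lower, with 176 to 223 and 504 to 803. Of 4 epidermis and trophoblast markers tested 2 were higher and 0 lower. None of the 3 mesoderm markers tested was detected at NC day 11, but only 1 was detected at day 0. In a wider list of 10 tested mesoderm genes 3 were higher and 0 lower, with a median difference of 0.21. Of 8 fibroblast markers, which feeder cells would carry, 4 were higher and 2 lower, with summed signals of 4011 to 4349 at day 0 and 3069 to 4098 at NC day 11. The beadchips carry human probes, and the part of feeder RNA in any result was not tested. In bulk RNA fewer cells of a type and less RNA per cell cannot be told apart, which holds for every change below.

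By limma's moderated test with p-values adjusted over all 22848 genes, 6715 genes differed between NC day 11 and day 0, 29.4% of those tested. Of these 3424 were higher (15%) and 3291 lower (14.4%), and the median difference over all genes was -0.02 on the log2 scale. The 3 values of one group all lay above the 3 values of the other for 9256 genes (40.5%). Differences of at least 2-fold were found for 1536 higher and 1468 lower genes, and of at least 16-fold for 68 and 57. A set of 545 genes was detected on all 3 NC day 11 arrays and on no day 0 array, and 437 genes showed the reverse. All differences are given on the log2 scale of normalized signal, NC day 11 minus day 0, with the standard error of the fit (SE). For genes at background on all arrays of the dimmer group the change is given as "at least" a fold. A note of 1 of 3 or 2 of 3 gives how many arrays of the dimmer group had signal over background. Detection of a gene counts any of its probes, which need not be the probe whose values are given. The size of a change with such a note therefore leans on signals at or near background. Gene lists are described by counts and by the median difference of their tested members, to be read against these background shares.

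**Figure D1:**
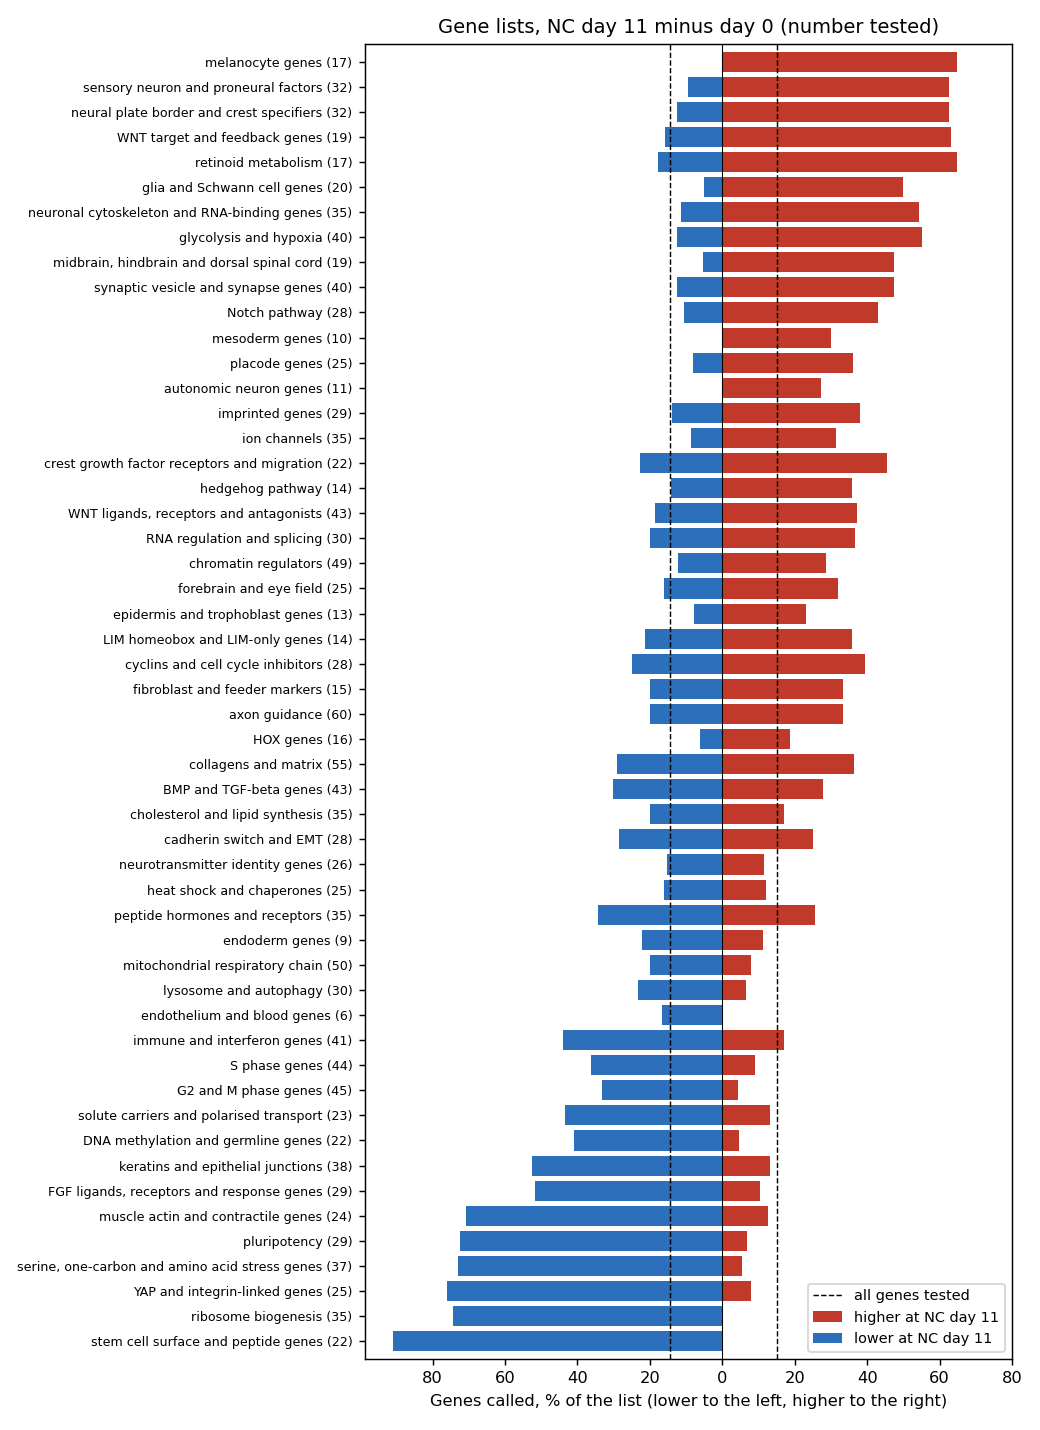
Share of each gene list called higher (bars to the right) or lower (bars to the left) at NC day 11 than at day 0, in percent of the list's tested genes (number in parentheses); dashed lines mark the 15% and 14.4% of all genes. Melanocyte genes, sensory neuron and proneural factors, crest specifiers and WNT targets lie at the top, and stem cell surface and peptide genes lie at the bottom with 20 of 22 lower.

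Genes for surface proteins and secreted peptides of stem cells were lower at NC day 11. Of 22 tested genes for stem cell surface proteins and peptides, 20 fell and 0 rose, with a median of -3.16. GAL, which encodes the neuropeptide galanin, a transcript abundant in embryonic stem cells, measured 11.80, 12.13 and 11.90 on the day 0 arrays and 4.47, 4.93 and 4.48 on the NC day 11 arrays. All NC day 11 values were at background, and the fall came to at least 112-fold (adjusted p = 1e-24). NTS, the neurotensin gene, fell by 5.63 (SE 0.25, 1 of 3), the secretoglobin gene SCGB3A2 by 4.80 (SE 0.31, 1 of 3), and IDO1, a tryptophan-degrading enzyme, was at least 5.77-fold lower. The heparan sulfate proteoglycan GPC4 fell by 4.05 (SE 0.22), the tetraspanin CD9 by 3.02 (SE 0.42), alkaline phosphatase ALPL by 3.20 (SE 0.18) and the stem cell antigen PROM1 by 2.36 (SE 0.21). NTS and SCGB3A2 were above background on 1 NC day 11 array only, so the size of their falls leans on signals near background.

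Among 29 pluripotency genes 21 fell and 2 rose, with a median of -2.16. ZSCAN10, a zinc finger factor of pluripotent cells, was at least 36.6-fold lower, and L1TD1, an RNA-binding protein of these cells, fell by 4.08 (SE 0.33). LIN28A, which blocks the maturation of let-7 microRNAs, measured 12.09, 12.07 and 12.48 on the day 0 arrays and 11.87, 11.97 and 11.78 on the NC day 11 arrays. Its groups lay close together, with a difference of -0.34 (SE 0.14) and an adjusted p of 0.0714, which was 0.0204 on the authors' processed values. Its paralog LIN28B was higher by 0.43 (SE 0.15), but the adjusted p rose as far as 0.145 without NC day 11 replicate 2 or 3 or day 0 replicate 1 or 2, and with median scaling of the arrays the difference was 0.12 (adjusted p = 0.81). OTX2, a head organiser and forebrain factor also active in stem cells, rose by 1.28 (SE 0.18). In the list of 22 DNA methylation and germline genes 9 fell and 1 rose: the de novo methyltransferase DNMT3B fell by 3.75 (SE 0.20) and the dioxygenase TET1 by 1.18 (SE 0.25), UHRF1, which guides maintenance methylation, rose by 1.09 (SE 0.18), and the maintenance enzyme DNMT1 stood at 0.07 (SE 0.14) (adjusted p = 0.794).

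The array also carries probes for some microRNA genes. These report the precursor transcript and not the mature product, and the 2 described here were picked after their values were seen. The MIR302C gene belongs to the miR-302 cluster, the main microRNA cluster of human pluripotent cells, and MIR205 is known for epithelial cells. Mature sequences from RefSeq (build GRCh38.p14) are shown for both arms because the array cannot tell which is made, with the seed (bases 2 to 8) in capitals. MIR302C lies on the minus strand of chromosome 4, with its arms at 112648366 to 112648388 (3p) and 112648402 to 112648423 (5p), and MIR205 on the plus strand of chromosome 1, with its arms at 209432166 to 209432187 (5p) and 209432203 to 209432223 (3p).
hsa-miR-302c-3p: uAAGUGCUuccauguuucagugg
hsa-miR-302c-5p: uUUAACAUggggguaccugcug
hsa-miR-205-5p: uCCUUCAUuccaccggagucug
hsa-miR-205-3p: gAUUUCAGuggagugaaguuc
No seed is shared among these 4 arms. The MIR302C probe gave 6.86, 6.86 and 8.20 on the day 0 arrays and 4.61, 4.80 and 4.81 on the NC day 11 arrays. It was above background on all day 0 arrays and on no NC day 11 array, at least 4.51-fold lower (adjusted p = 1.47e-09), with the third day 0 array above the other 2. MIR205 went from 6.23, 6.68 and 6.23 to 4.96, 4.56 and 4.62, at least 2.37-fold lower (adjusted p = 1.2e-07), and was likewise undetected at NC day 11.

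Epithelial junction genes fell, while some junction and adhesion genes rose. Of 38 keratin and junction genes 20 fell and 5 rose, with a median of -0.67. The claudin gene CLDN10 measured 9.09, 9.35 and 8.96 on the day 0 arrays and 4.86, 4.71 and 4.94 on the NC day 11 arrays and was thus below background in NC day 11 (at least 16-fold lower, adjusted p = 5.46e-20). CLDN6 fell by 3.39 (SE 0.28), CLDN7 by 3.10 (SE 0.40), the polarity gene CRB3 by 2.71 (SE 0.29) and the desmosome gene PKP2 by 2.69 (SE 0.27, 2 of 3). EPCAM, an epithelial adhesion molecule, had values of 11.44, 11.44 and 11.68 on the day 0 arrays and 7.85, 8.13 and 7.19 on the NC day 11 arrays, well apart, and fell by 3.80 (SE 0.41) (adjusted p = 1.97e-10). The regulators of epithelial identity OVOL2, a zinc finger repressor of mesenchymal genes, and ESRP1, an epithelial splicing factor, were at least 6.34-fold and at least 3.25-fold lower. E-cadherin (CDH1) fell less, by 1.84 (SE 0.43) (adjusted p = 0.000763), and was detected on all NC day 11 arrays. CDH6, a cadherin of the premigratory neural crest, measured 7.15, 7.37 and 6.68 on the day 0 arrays and 11.33, 11.04 and 11.18 on the NC day 11 arrays and rose by 4.11 (SE 0.33) (adjusted p = 2.79e-14). CLDN1 rose by 2.96 (SE 0.33, 2 of 3) and KRT19 by 1.60 (SE 0.22). Neither N-cadherin (CDH2) nor vimentin (VIM) passed the test, at -0.28 (SE 0.15) and -0.31 (SE 0.17), and TWIST1, a crest and mesenchyme factor, fell by 1.09 (SE 0.32), with an adjusted p of 0.00699 and of 0.0879 without day 0 replicate 2.

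Genes of FGF signalling and its feedback were lower at NC day 11. Of 29 tested, 15 fell and 3 rose, with a median of -0.75. SPRY4, a feedback inhibitor induced by FGF and ERK signalling, measured 9.76, 9.73 and 9.88 on the day 0 arrays and 4.69, 4.65 and 4.94 on the NC day 11 arrays. It was undetected in all NC day 11 arrays, at least 25.3-fold lower (adjusted p = 1.1e-15). The ERK-induced factor ETV4 fell by 4.22 (SE 0.28, 1 of 3), its relative ETV5 by 2.35 (SE 0.31, 2 of 3), SPRY1 by 2.72 (SE 0.35) and the ERK phosphatase DUSP6 by 2.49 (SE 0.34). Among receptors FGFR4 was at least 6.11-fold lower and FGFR3 fell by 1.86 (SE 0.22), whereas FGFR1 stood at -0.14 (SE 0.27) (adjusted p = 0.782). The ligand gene FGF2 fell by 3.69 (SE 0.22, 2 of 3). Against this direction the immediate early genes EGR1 and FOS moved up, EGR1 by 2.02 (SE 0.29) and FOS at least 1.79-fold. Day 0 cells were expanded in medium with FGF2, and whether NC medium held it is not stated.

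Smooth muscle type contractile genes, caveolins and targets of YAP, the effector of the Hippo pathway, made up another large fall. Of 24 contractile genes 17 fell and 3 rose (median -1.57), and of 25 YAP and integrin-linked genes 19 fell and 2 rose (median -1.38). CAV1, the coat protein of caveolae, measured 11.37, 11.42 and 11.08 on the day 0 arrays and 5.84, 6.08 and 6.70 on the NC day 11 arrays. Its NC day 11 values, though detected, were far below those of day 0, a fall by 5.08 (SE 0.28) (adjusted p = 1.95e-19). CCN1, a matricellular YAP target, had 10.77, 10.70 and 10.45 on the day 0 arrays and 6.07, 5.56 and 6.02 on the NC day 11 arrays and fell by 4.75 (SE 0.39), and its relative CCN2 fell by 3.63 (SE 0.30). CD44, a hyaluronan receptor, fell by 4.11 (SE 0.27, 1 of 3), the integrin subunits ITGB5 and ITGA3 by 3.15 (SE 0.16) and 3.14 (SE 0.30, 2 of 3), and TEAD4, a partner of YAP, by 3.58 (SE 0.20). The smooth muscle actin ACTG2 gave 11.43, 11.97 and 11.54 on the day 0 arrays and 6.18, 6.13 and 6.04 on the NC day 11 arrays. That is a fall by 5.53 (SE 0.41) (adjusted p = 3.63e-15), and CNN1 (calponin) was at least 12.0-fold lower. ACTA2, another smooth muscle actin, moved the other way: it measured 6.84, 7.35 and 7.16 on the day 0 arrays and 10.74, 10.59 and 10.54 on the NC day 11 arrays, with no overlap, and rose by 3.50 (SE 0.16) (adjusted p = 3.46e-22). The atrial light chain gene MYL4 was at least 5.19-fold higher, while TAGLN and THY1, also fibroblast markers, fell by 2.90 (SE 0.28) and 3.19 (SE 0.16). The fibroblast markers given above changed in both directions, and their part in these falls was not tested.

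**Figure D2:**
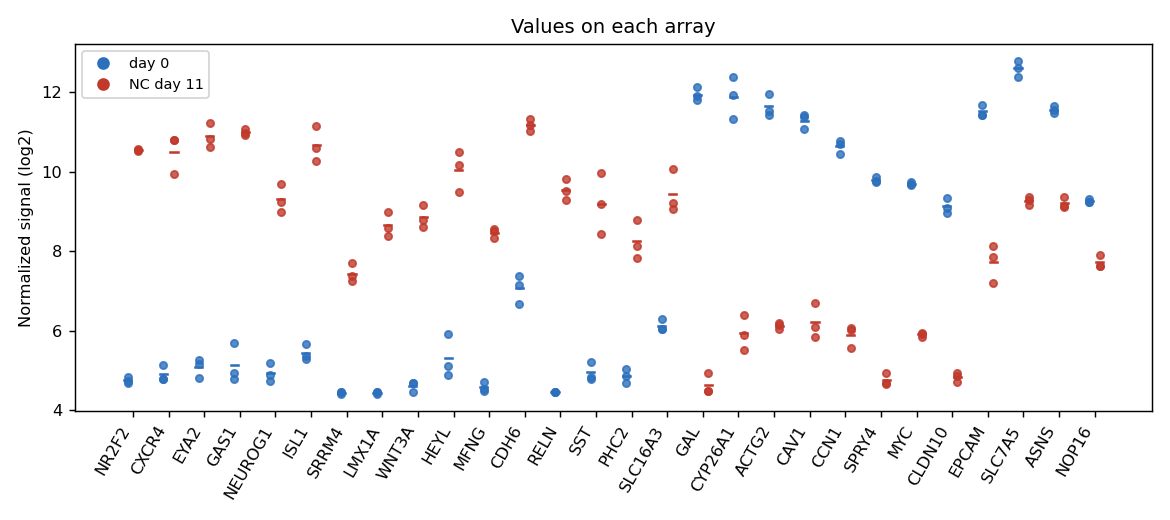
Normalized log2 signal of 28 genes on each of the 3 day 0 arrays (blue points) and the 3 NC day 11 arrays (red points), with short lines at the group means. The 16 genes on the left lay higher on every NC day 11 array and the 12 on the right lay lower, with no overlap between groups for any of the 28. The genes were picked with their values known, so their separation is no separate evidence. Of all genes tested, 40.5% had groups that did not overlap.

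Crest and dorsal neural tube regulators rose. Of 32 neural plate border and crest specifiers 20 rose and 4 fell, with a median of 1.05. NR2F2, a nuclear receptor of the crest and of cranial mesenchyme, measured 4.72, 4.84 and 4.69 on the day 0 arrays and 10.58, 10.54 and 10.53 on the NC day 11 arrays. The NC day 11 values lay close together and the rise was at least 42.0-fold (adjusted p = 3.06e-21). SNAI2, a zinc finger repressor active when crest cells leave the neural tube, had 4.41, 4.46 and 4.63 on the day 0 arrays and 8.92, 8.21 and 8.98 on the NC day 11 arrays. It rose by 4.20 (SE 0.23, 1 of 3) (adjusted p = 2.26e-19), and MSX2 and SOX9 were at least 3.76-fold and at least 6.03-fold higher. ID2 and ID3, BMP-responsive inhibitors of basic helix-loop-helix factors, rose by 3.45 (SE 0.19) and 1.90 (SE 0.24), while ID1 stood at -0.17 (SE 0.31) (adjusted p = 0.775), in a condition with the BMP receptor inhibitor. The border factor ZIC1 was at least 1.93-fold higher and PAX3 at least 2.74-fold, but PAX7 was near background in both groups (-0.24 (SE 0.22, 1 of 3), adjusted p = 0.487). FOXD3, a specifier also used in stem cells, rose by 0.87 (SE 0.23, 2 of 3). The list's largest fall was that of MYC, taken up with the WNT targets.

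Receptors through which crest cells are guided and kept alive rose in part. Of 22 tested, 10 rose and 5 fell. CXCR4, the receptor of the chemokine CXCL12, measured 4.77, 5.12 and 4.79 on the day 0 arrays and 9.94, 10.79 and 10.79 on the NC day 11 arrays. It went from background to at least 40.6-fold higher (adjusted p = 4.85e-17). EDNRA, the endothelin receptor of the cranial crest, rose by 4.08 (SE 0.27, 1 of 3), whereas EDNRB, that of the pigment and enteric lineages, stood at 0.27 (SE 0.34) (adjusted p = 0.645). Of the GDNF family co-receptors GFRA2 rose by 3.10 (SE 0.31, 1 of 3) and GFRA3 at least 5.01-fold, and their signalling partner RET stood at -0.41 (SE 0.27, 1 of 3) (adjusted p = 0.298). The neuregulin receptor ERBB3 rose by 1.41 (SE 0.26), KIT by 1.52 (SE 0.20), and the integrin subunit gene ITGA4 was at least 2.32-fold higher. The low-affinity neurotrophin receptor NGFR, a surface marker used to sort crest cells, was at 0.81 (SE 0.36) with an adjusted p of 0.0913 (0.0246 with these 6 arrays alone in the fit), and PDGFRA at 0.24 (SE 0.24, 1 of 3) (0.545).

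Of 19 tested genes of the midbrain, hindbrain and dorsal spinal cord 9 rose, 1 fell and 9 were not called, with a median of 0.66. LMX1A, a LIM homeobox factor of the roof plate and ventral midbrain, measured 4.45, 4.41 and 4.45 on the day 0 arrays and 8.59, 8.39 and 8.99 on the NC day 11 arrays and rose by 4.22 (SE 0.45, 1 of 3) (adjusted p = 1.49e-10). WNT3A, a roof plate ligand, had 4.68, 4.45 and 4.67 on the day 0 arrays and 8.78, 8.61 and 9.16 on the NC day 11 arrays, at background throughout day 0, and was at least 12.9-fold higher. WNT1, the ligand of the midbrain-hindbrain boundary and dorsal midline, was at least 3.37-fold higher, on values of 4.73, 4.54 and 4.56 on the day 0 arrays and 7.65, 6.66 and 6.42 on the NC day 11 arrays, the first NC day 11 array being the highest. WLS, the carrier that brings WNT proteins to the cell surface, rose by 5.37 (SE 0.40) (adjusted p = 3.51e-15). WNT2B rose by 4.16 (SE 0.29, 1 of 3), WNT5A by 2.48 (SE 0.35, 1 of 3) and the potentiator RSPO3 by 1.68 (SE 0.34, 1 of 3). Of 43 WNT ligands, receptors and antagonists 16 rose and 8 fell, and the falls were mostly in receptors: FZD7 fell by 3.40 (SE 0.19), FZD5 by 2.13 (SE 0.33, 2 of 3), FZD4 by 1.71 (SE 0.23) and the co-receptor LRP5 by 1.09 (SE 0.20). FZD3 rose by 1.47 (SE 0.18). GAS1, a membrane protein that presents Hedgehog ligands, measured 4.92, 4.79 and 5.69 on the day 0 arrays and 10.93, 10.98 and 11.08 on the NC day 11 arrays and rose by 5.86 (SE 0.22, 2 of 3) (adjusted p = 5e-25). Of the Hedgehog targets PTCH1 stood at -0.02 (SE 0.29, 1 of 3) (adjusted p = 0.98) and GLI1 was at least 1.50-fold lower.

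Of 19 WNT target and feedback genes 12 rose and 3 fell, with a median of 1.28. TNFRSF19, a receptor induced by WNT, measured 5.81, 5.03 and 5.73 on the day 0 arrays and 11.11, 11.10 and 11.04 on the NC day 11 arrays and rose by 5.56 (SE 0.29, 2 of 3). The membrane antagonist APCDD1 was at least 30.4-fold higher, NKD1 at least 7.84-fold and the secreted lipase gene NOTUM at least 3.36-fold. The 3 that fell were MYC, TCF7L2 by 0.74 (SE 0.26) and CCND1 by 0.56 (SE 0.18). The adjusted p of TCF7L2 rose as far as 0.098 without NC day 11 replicate 2 or day 0 replicate 1 or 3, and was 0.0726 with median scaling. With no background correction the TCF7L2 difference was -0.32 (adjusted p = 0.0505). The adjusted p of CCND1 rose as far as 0.19 without NC day 11 replicate 2 or day 0 replicate 1 or 2. MYC, a growth regulator named as a WNT target in colon cells, had 9.67, 9.73 and 9.68 on the day 0 arrays and 5.92, 5.95 and 5.84 on the NC day 11 arrays. These arrays were tightly grouped in both conditions and the fall was by 3.79 (SE 0.30) (adjusted p = 4.11e-14). The promoters of these genes, 250 bases before to 50 after the start site in RefSeq (GRCh38.p14), were searched for CTTTGAT, the sequence bound by TCF and LEF factors, and for ATCAAAG, its reverse on the other strand. Of 13 members with a promoter sequence 1 held it (7.69%), against 2.64% of 27305 promoters and 1.74% of the 11608 genes tested that have one. That was SP5, a zinc finger factor that was at least 13.2-fold higher at NC day 11, and the window around the match (capitals) on the plus strand, chr2:170715203-170715259, begins the match 109 bases upstream of the start site.
SP5: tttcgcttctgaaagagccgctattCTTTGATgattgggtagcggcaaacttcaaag
The search covered the proximal promoter only, and a match is not a measured binding site. Promoters of the pluripotency list were searched in the same way for ATGCAAAT and its reverse ATTTGCAT. Of 19 members with a promoter sequence 0 held it, against 1.8% of all promoters and 1.44% of the genes tested that have one.

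Of 17 retinoid metabolism genes 11 rose and 3 fell, with a median of 0.69. No HOX cluster gene that entered the test passed it. Of 11 HOX cluster genes tested 0 passed the test by limma, with HOXC13 at -0.50 (SE 0.24), and 1 had an unadjusted p under 0.05. Of the 11, 2 were detected on all 6 arrays and the other 9 were not. Of the 44 genes of the wider HOX list on the array 16 passed the detection filter, so most could not be tested. The HOX cofactors MEIS2 and PBX3 rose, MEIS2 at least 10.4-fold and PBX3 by 1.61 (SE 0.20). OTX1, a forebrain and midbrain factor, was at least 8.16-fold higher, and BARHL1 and EGR2, which mark dorsal neural tube cells and hindbrain segments, rose at least 3.21-fold and at least 2.90-fold. Forebrain genes moved both ways, 8 of 25 higher and 4 lower, with a median of 0.03. CYP26A1, which degrades retinoic acid, measured 11.93, 12.38 and 11.32 on the day 0 arrays and 6.40, 5.88 and 5.51 on the NC day 11 arrays and fell by 5.95 (SE 0.44) (adjusted p = 3.99e-15). ALDH1A3, which makes retinoic acid, was at least 14.5-fold lower, whereas the retinoid-binding protein CRABP2 rose by 4.16 (SE 0.18), the retinol dehydrogenase RDH10 by 3.08 (SE 0.28, 2 of 3) and the retinol transporter STRA6 at least 3.71-fold.

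Factors of sensory neurogenesis rose. Of 32 sensory neuron and proneural factors 20 rose and 3 fell, with a median of 1.29. Placodes also give rise to sensory neurons, and the placode markers given above were higher on the same arrays, whose part in this rise was not tested. NEUROG1, which starts sensory neurogenesis, measured 4.87, 5.19 and 4.72 on the day 0 arrays and 8.98, 9.70 and 9.25 on the NC day 11 arrays and rose by 4.39 (SE 0.28, 1 of 3) (adjusted p = 3.03e-17). NEUROG2, an earlier sensory factor in the mouse crest, was detected on 2 of 3 NC day 11 arrays and was at least 1.58-fold higher, but this call ended without any 1 of the 6 arrays other than NC day 11 replicate 1, with adjusted p as high as 0.256. It also ended on the authors' processed values (adjusted p = 0.0938), with no background correction (0.0776), with an offset of 50 (0.0763) and with no detection filter (0.0559). ISL1, a LIM homeobox factor of early sensory neurons, had 5.66, 5.29 and 5.35 on the day 0 arrays and 10.28, 11.16 and 10.60 on the NC day 11 arrays and rose by 5.25 (SE 0.28). EBF1 and EBF3, which act after the proneural genes, were at least 8.30-fold and at least 8.32-fold higher, NHLH1 at least 6.26-fold, TLX2 at least 5.86-fold and TLX3 at least 1.78-fold. EYA2, a cofactor in placodes and sensory ganglia, rose as well, by 5.82 (SE 0.27, 1 of 3). The autonomic determinant PHOX2A stood at -0.15 (SE 0.21, 1 of 3) and did not pass the test. Of genes known from later sensory subtypes, RUNX3 was at -0.51 (SE 0.33, 2 of 3) (adjusted p = 0.277), RUNX1 at 0.00 (SE 0.26, 1 of 3), the capsaicin receptor TRPV1 was undetected in both groups, and the peptide genes CALCA and TAC1 fell, CALCA at least 1.86-fold and TAC1 by 1.60 (SE 0.24, 2 of 3).

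Neuronal structure and synapse genes rose, and transmitter identity genes were called about as often as all genes. Of 35 neuronal cytoskeleton and RNA-binding genes 19 rose and 4 fell (median 0.94), of 40 synapse genes 19 rose and 5 fell (0.53), of 35 ion channel genes 11 rose and 3 fell (0.15), and of 26 transmitter identity genes 3 rose and 4 fell (-0.01), the last being 26.9% called, near the 29.4% of all genes. SRRM4, a splicing factor of neural microexons, measured 4.40, 4.46 and 4.44 on the day 0 arrays and 7.24, 7.69 and 7.37 on the NC day 11 arrays. It was undetected at day 0 and at least 4.82-fold higher (adjusted p = 4.47e-18). ELAVL3, a neuronal RNA-binding protein, rose by 4.36 (SE 0.23, 1 of 3), CELF2 by 2.44 (SE 0.29, 2 of 3), MAP2, a dendritic microtubule protein, at least 8.77-fold and NEFM, a neurofilament, by 4.66 (SE 0.34, 1 of 3). PTBP2, a splicing repressor of early neurons, stood at -0.12 (SE 0.20) (adjusted p = 0.761). Within the synapse list SNAP25 and SYP were at least 6.77-fold and at least 4.92-fold higher, whereas SYT1, a vesicle calcium sensor, fell by 1.05 (SE 0.25) and VGF, a neurotrophin-induced secretory peptide, by 2.62 (SE 0.25). The acid-sensing channel ASIC1 was at least 3.19-fold higher, the AMPA receptor subunit GRIA2 at least 3.27-fold and the dopamine transporter SLC6A3 at least 2.54-fold. The vesicular transporters SLC17A7 and SLC32A1, which define glutamate and GABA release, were undetected in both groups. SST, encoding the peptide somatostatin, gave 4.84, 5.21 and 4.79 on the day 0 arrays and 8.42, 9.97 and 9.19 on the NC day 11 arrays, all NC day 11 values above day 0, and rose by 4.25 (SE 0.30, 1 of 3) (adjusted p = 6.15e-16), and GRP was at least 4.43-fold higher.

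Axon guidance genes were split, 20 of 60 higher and 12 lower with a median of 0.12. Ephrin genes rose, EFNB1 at least 5.72-fold, EFNB3 by 2.52 (SE 0.20) and EFNB2 by 2.06 (SE 0.20), together with the receptor EPHB1 by 2.58 (SE 0.26), while EPHA2 fell by 1.63 (SE 0.28). The repellent SLIT2 rose by 2.66 (SE 0.28), its receptor ROBO1 by 1.77 (SE 0.30) and ROBO2 at least 2.18-fold, whereas ROBO3, a receptor of commissural axons, fell by 1.28 (SE 0.31). RELN, a large extracellular protein that positions neurons, measured 4.45, 4.46 and 4.44 on the day 0 arrays and 9.28, 9.83 and 9.51 on the NC day 11 arrays. It was undetected at day 0 and at least 20.8-fold higher at NC day 11 (adjusted p = 1.79e-18).

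Several Notch genes rose, 12 of 28 higher and 3 lower with a median of 0.58. HEYL, a target of Notch known in crest and smooth muscle, measured 4.89, 5.11 and 5.92 on the day 0 arrays and 10.49, 10.16 and 9.50 on the NC day 11 arrays, the third day 0 array being the highest of its group. It rose by 4.74 (SE 0.33, 1 of 3) (adjusted p = 2.67e-16). MFNG, a glycosyltransferase that tunes Notch receptors, had 4.47, 4.53 and 4.70 on the day 0 arrays and 8.33, 8.50 and 8.55 on the NC day 11 arrays and was at least 9.85-fold higher. The ligand DLL1 rose by 2.75 (SE 0.29, 1 of 3), HES6, which favours neuronal differentiation, by 3.35 (SE 0.30) and HEY1 by 2.73 (SE 0.29, 1 of 3), but the effector HES1 stood at 0.51 (SE 0.26) (adjusted p = 0.145).

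Matrix genes changed in both directions, 20 of 55 higher and 16 lower. COL2A1, a cartilage collagen also made by crest and notochord, was at least 8.59-fold higher, the link protein HAPLN1 rose by 2.69 (SE 0.50) and COL9A1 by 2.54 (SE 0.29). COL12A1 was at least 6.48-fold lower, TIMP4 at least 4.89-fold, and the basement membrane chain COL4A1 fell by 1.85 (SE 0.14) while COL4A5 and COL4A6 rose by 1.58 (SE 0.17) and 2.62 (SE 0.21). The scavenger receptor COLEC12 measured 5.66, 5.89 and 6.45 on the day 0 arrays and 11.24, 11.23 and 11.85 on the NC day 11 arrays, and it rose by 5.44 (SE 0.31) (adjusted p = 5.26e-19). Of 20 glial genes 10 rose and 1 fell. FABP7, a radial and early Schwann lineage fatty acid carrier, was at least 4.65-fold higher. Among 17 melanocyte genes 11 rose, among them PMEL by 3.49 (SE 0.20) and MITF, the pigment cell regulator, by 1.92 (SE 0.28, 1 of 3); TYRP1 did not pass the test (0.41 (SE 0.29), adjusted p = 0.346).

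Genes for amino acid supply fell. Of 37 serine, one-carbon and amino acid stress genes 27 fell and 2 rose, with a median of -1.12. SLC7A5, the light chain of the large neutral amino acid transporter, measured 12.62, 12.80 and 12.40 on the day 0 arrays and 9.37, 9.17 and 9.28 on the NC day 11 arrays. Every NC day 11 value lay more than 3 log2 units below every day 0 value, and the fall was by 3.33 (SE 0.20) (adjusted p = 5.04e-18). Its heavy chain SLC3A2 fell by 1.93 (SE 0.15), the glutamine carrier SLC1A5 by 2.11 (SE 0.19) and the arginine carrier SLC7A3 by 3.95 (SE 0.22). ASNS, asparagine synthetase, had 11.55, 11.49 and 11.66 on the day 0 arrays and 9.14, 9.12 and 9.36 on the NC day 11 arrays and fell by 2.36 (SE 0.20) (adjusted p = 4e-13). The serine synthesis enzymes PSAT1, PHGDH and PSPH fell by 1.77 (SE 0.14), 1.12 (SE 0.14) and 1.17 (SE 0.20). ATF4, the factor that induces many of these genes, itself fell by 0.71 (SE 0.15), its target TRIB3 by 2.58 (SE 0.31, 2 of 3), while the related stress factors ATF3 and DDIT3 stood at 0.11 (SE 0.23) and -0.07 (SE 0.31). DDIT4, an inhibitor of mTOR, rose by 2.36 (SE 0.46). Promoters were searched for TGATGCAA and its reverse TTGCATCA, a composite site of ATF4 with CEBP factors. Of 29 members with a sequence 2 held it (6.9%), against 0.923% of all promoters and 0.577% of the genes tested that have one. They are MTHFD1L, a mitochondrial folate enzyme, which fell by 1.29 (SE 0.20), and CHAC1, a glutathione-degrading enzyme, at least 3.01-fold lower. Both windows are on the plus strand, chr6:150866332-150866389 and chr15:40953237-40953294 (GRCh38.p14), with the match in capitals 129 and 209 bases upstream of the start site.
MTHFD1L: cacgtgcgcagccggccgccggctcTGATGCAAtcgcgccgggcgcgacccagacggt
CHAC1: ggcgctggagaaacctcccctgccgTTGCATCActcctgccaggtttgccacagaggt
CHAC1 measured 6.78, 6.73 and 6.65 on the day 0 arrays and 4.44, 4.42 and 4.59 on the NC day 11 arrays and was at background on all NC day 11 arrays.

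Genes of ribosome assembly fell by smaller steps but in most cases. Of 35 tested, 26 fell and 0 rose, with a median of -0.69. NOP16, a nucleolar protein, measured 9.24, 9.25 and 9.32 on the day 0 arrays and 7.91, 7.62 and 7.62 on the NC day 11 arrays and fell by 1.56 (SE 0.20) (adjusted p = 2.5e-08). RRP12, an export factor of ribosomal subunits, fell by 1.37 (SE 0.21), the helicase DDX21 by 1.33 (SE 0.23), the methyltransferase NOP2 by 1.06 (SE 0.14) and NOLC1 by 0.95 (SE 0.20). The rRNA methyltransferase FBL had 11.23, 11.13 and 11.28 on the day 0 arrays and 11.44, 11.35 and 11.16 on the NC day 11 arrays, overlapping, and did not pass the test (0.10 (SE 0.14), adjusted p = 0.665). The E-box CACGTG, which MYC with MAX can bind and which reads the same on both strands, was found in 11 of 29 member promoters (37.9%), against 7.43% of all 27305 promoters and 9.62% of the 11608 genes tested that have one. Among members that fell, 6 of 21 held it, and of the members that did not pass the test, 5 of 8. Windows are shown for a gene that fell and for 2 that did not pass the test, with the E-box in capitals: MRTO4 (chr1:19251808-19251835, plus strand), PES1 (chr22:30591881-30591908, minus strand) and RRP9 (chr3:51941893-51941920, minus strand).
MRTO4: gtcttccgccgCACGTGgattcagcgcg
PES1: ccttggcagggCACGTGcgggaggaagt
RRP9: ggttcagctgcCACGTGagttctgcggc
MRTO4, a late assembly factor of the large subunit, fell by 0.93 (SE 0.22); PES1, of the large subunit, and RRP9, of the small subunit processing machinery, stood at -0.30 (SE 0.24) and -0.48 (SE 0.29) with adjusted p of 0.411 and 0.248.

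Glycolysis and low-oxygen response genes rose. Of 40 tested, 22 rose and 5 fell, with a median of 0.61. SLC16A3, the lactate exporter, measured 6.04, 6.28 and 6.04 on the day 0 arrays and 9.22, 10.07 and 9.06 on the NC day 11 arrays and rose by 3.33 (SE 0.48) (adjusted p = 2.03e-07). PFKFB4, which sets the level of a glycolysis activator, rose by 3.14 (SE 0.32), the mitophagy receptor BNIP3 by 2.72 (SE 0.29), the collagen prolyl hydroxylase P4HA2 by 2.09 (SE 0.23) and the enolase ENO3 by 2.57 (SE 0.18). Other genes induced by low oxygen did not rise: VEGFA stood at -0.31 (SE 0.28) (adjusted p = 0.481), SLC2A1, a glucose carrier, at -0.30 (SE 0.30) (0.545), EGLN3 fell by 1.69 (SE 0.30, 2 of 3) and ADM, encoding adrenomedullin, by 4.37 (SE 0.38). Of 50 respiratory chain genes 4 rose and 10 fell (28.0% called), near the background share, and of 35 cholesterol and lipid genes 6 rose and 7 fell. The iron storage genes FTH1 and FTL fell by 1.60 (SE 0.21) and 0.90 (SE 0.12), and the iron exporter SLC40A1 was at least 2.27-fold higher.

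Genes of S phase and of G2 and M phase were called more often than all genes, mostly as lower. Most of them were still not called. Of 44 S phase genes 16 fell, 4 rose and 24 were not called (median -0.30, 45.5% called). Of 45 G2 and M phase genes 15 fell, 2 rose and 28 were not called (median -0.27, 37.8% called). Of all genes 29.4% were called. TK1, thymidine kinase, fell by 1.79 (SE 0.22) and the replication helicase subunit MCM5 by 1.54 (SE 0.19), whereas PCNA, the DNA polymerase clamp, stood at 0.13 (SE 0.19) and MKI67, a proliferation antigen, at -0.34 (SE 0.28) (adjusted p = 0.704 and 0.438). CDKN1C, an inhibitor of cyclin-dependent kinases, measured 6.04, 6.60 and 5.90 on the day 0 arrays and 9.04, 9.20 and 9.82 on the NC day 11 arrays and rose by 3.17 (SE 0.26) (adjusted p = 4.61e-14). CCNG2, a cyclin of cells leaving the cycle, rose by 3.19 (SE 0.26, 1 of 3), while CDKN1A, the target of p53, fell by 1.75 (SE 0.21). Among chromatin regulators, 14 of 49 higher and 6 lower, members of Polycomb complexes moved in opposite directions: PHC1 measured 9.52, 9.36 and 9.85 on the day 0 arrays and 6.72, 6.45 and 6.84 on the NC day 11 arrays and fell by 2.90 (SE 0.19), while PHC2 measured 4.67, 4.86 and 5.04 on the day 0 arrays and 8.79, 7.84 and 8.13 on the NC day 11 arrays and rose by 3.39 (SE 0.24, 1 of 3). CBX7 was at least 1.88-fold lower, and the histone variant gene MACROH2A2 rose by 2.94 (SE 0.21).

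Immune and interferon genes were lower in 18 of 41 cases and higher in 7, with a median of -0.54. IFITM1, an antiviral membrane protein high in stem cells, measured 10.91, 10.67 and 10.53 on the day 0 arrays and 6.52, 6.40 and 6.20 on the NC day 11 arrays and fell by 4.33 (SE 0.21) (adjusted p = 4.65e-21). The immunoproteasome subunit PSMB8 was at least 4.82-fold lower, the peptide transporter TAP1 fell by 2.51 (SE 0.21) and HLA-B by 0.91 (SE 0.23). CCL2, a chemokine for monocytes, went against the list: its values were 5.10, 5.37 and 5.59 on the day 0 arrays and 9.39, 9.20 and 9.60 on the NC day 11 arrays, and it rose by 4.04 (SE 0.26, 2 of 3) (adjusted p = 2.4e-17). Of 29 imprinted genes 11 rose and 4 fell, IGF2 at least 2.70-fold higher and SNRPN lower by 2.07 (SE 0.17); SNRPN shares its transcript with SNURF, and their probes cannot be taken as independent.

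Over the NC days the genes that fell reached their low level at different times, given here as group means on the log2 scale with the SD of 3 arrays. CAV1 had dropped from 11.29 ± 0.18 at day 0 to 5.58 ± 0.42 at NC day 3, and MYC from 9.69 ± 0.03 to 6.31 ± 0.31. IFITM1 was still 10.81 ± 0.33 at NC day 3 against 10.70 ± 0.19 at day 0 and stood at 6.38 ± 0.16 at NC day 11. CYP26A1 was at 12.95 ± 0.30 at NC day 3, above its day 0 mean of 11.88 ± 0.53, before it lay at 7.16 ± 0.17 at NC day 6. Among rising genes WLS stood at 9.34 ± 0.38 at NC day 3 and SNAI2 at 4.51 ± 0.09, then 9.35 ± 0.44 at NC day 6. WNT1 was highest at NC day 6, at 10.22 ± 0.51, and was down to 6.91 ± 0.65 at NC day 11. NEUROG1 stood at 4.98 ± 0.06 at NC day 6, 6.87 ± 0.82 at NC day 8 and 9.31 ± 0.36 at NC day 11, and SRRM4 at 5.17 ± 0.10 and 7.43 ± 0.23 on the last 2 days. These differences between intermediate days were not tested.

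**Figure D3:**
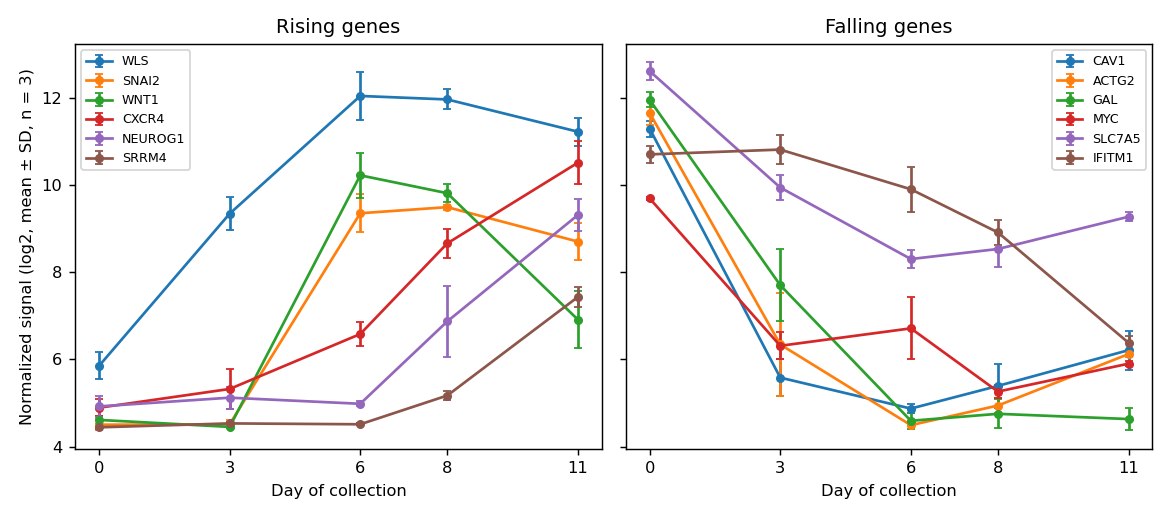
Mean normalized log2 signal (error bars are SD, n = 3 arrays) at day 0 and at NC days 3, 6, 8 and 11 for 6 genes that rose by day 11 (left) and 6 that fell (right). CAV1, ACTG2 and MYC were low from day 3, IFITM1 fell late, WNT1 peaked at day 6, and NEUROG1 and SRRM4 were highest at day 11.

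DSi day 11 and BE day 11 show which of these changes also appear with other compounds at the same day. NC day 11 differed from DSi day 11 in 2538 genes (11.1%), 1268 higher (5.55%) and 1270 lower (5.56%), and BE day 11 differed from NC day 11 in 2000 genes (8.75%), 1070 higher (4.68%) and 930 lower (4.07%). With median scaling in place of quantiles, 923 genes were higher and 647 lower in NC than in DSi, and 935 higher and 468 lower in BE than in NC. The fit leaves out the replicate number, and with that number as a block 2830 and 2300 genes differed. DSi day 11 and BE day 11 share the day 0 arrays with NC day 11, so the values against day 0 are set side by side only. SLC7A5, NOP16 and BNIP3, of the amino acid, ribosome assembly and glycolysis lists, lay on the same side of day 0 in the 3 conditions: SLC7A5 differed from day 0 by -3.33 in NC, -3.73 in DSi and -2.60 in BE, NOP16 by -1.56, -1.61 and -1.64, and BNIP3 by 2.72, 2.66 and 3.19. Of 35 ribosome assembly genes 1 was higher and 0 were lower in NC than in DSi (2.86% called), below the 11.1% of all genes. Of 40 glycolysis genes 6 were higher and 2 lower in NC than in DSi, a larger share than that of all genes. Of 37 serine, one-carbon and amino acid stress genes 4 were higher and 9 lower in NC than in DSi (35.1% called), and 4 were higher and 8 lower in BE than in NC (32.4%), both above the shares of all genes. Of the 44 S phase genes 0 were higher and 20 lower in NC than in DSi (median -0.50), with TK1 by -1.51 (SE 0.22) and MCM5 by -0.72 (SE 0.19).

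Of 32 neural plate border and crest specifiers 15 were higher and 5 lower in NC than in DSi, and 10 were higher and 6 lower in BE than in NC. Of 32 sensory and proneural factors 18 were higher and 0 lower in NC than in DSi, NEUROG1 by 4.12 (SE 0.28), and 16 were lower and 2 higher in BE than in NC, NEUROG1 by -4.06 (SE 0.28). ISL1 did not differ between BE and NC by the test (-0.37 (SE 0.28), adjusted p = 0.579). CXCR4 was higher in NC than in DSi by 2.28 (SE 0.37) and lower in BE than in NC, at -3.66 (SE 0.37), and SNAI2 was higher in NC than in DSi by 3.81 (SE 0.23) and in BE higher than in NC by 1.48 (SE 0.23). Of 25 forebrain genes 17 were lower and 2 higher in NC than in DSi (median -1.83), PAX6 by -2.75 (SE 0.23). CYP26A1 stood at 5.93 ± 0.44 in NC, 9.26 ± 0.15 in DSi and 8.50 ± 0.59 in BE. CAV1 and CD44 were higher in BE than in NC by 2.23 (SE 0.28) and 4.46 (SE 0.27). Of 17 melanocyte genes 14 were higher and 1 lower in BE than in NC.

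**Figure D4:**
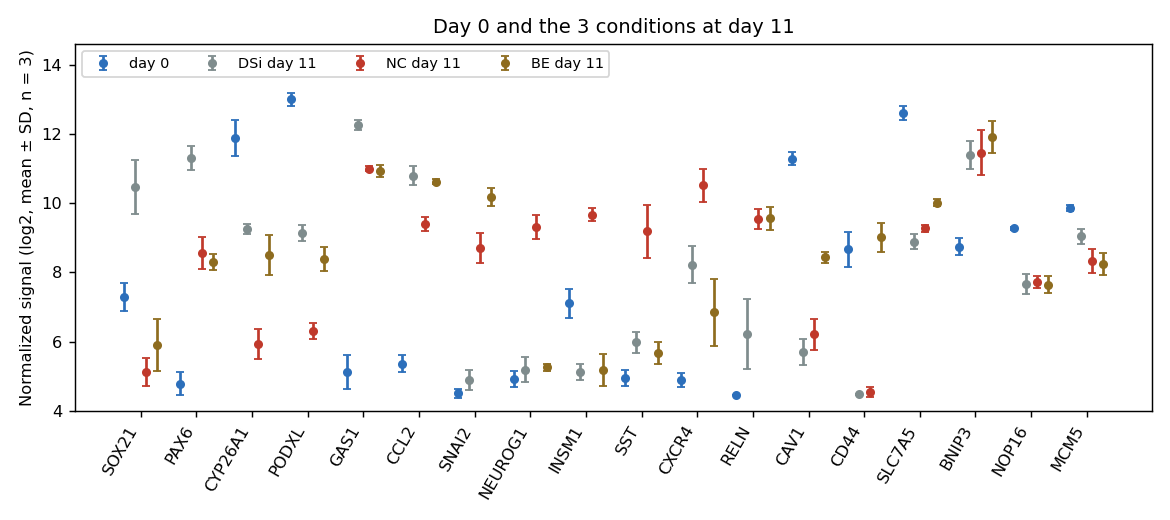
Mean normalized log2 signal (error bars are SD, n = 3 arrays) of 18 genes at day 0 (blue), DSi day 11 (grey), NC day 11 (red) and BE day 11 (brown). NEUROG1, INSM1, SST and CXCR4 were highest in NC, SOX21 and PAX6 in DSi, and SLC7A5, BNIP3 and NOP16 lay on the same side of day 0 in all 3.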

How the data were processed

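WA09 cultures were measured on Illumina beadchips in 36 arrays, 12 groups of 3. The authors deposited bead signal intensity per probe with a detection p-value, per the file headers, and a table of processed log2 values. Partek is named in the submitters' processing notes, with no version or role given. The probe table carries no gene names: genes came from the authors' second table, whose values were matched to those of the probes, which tied 34635 of 34687 genes within 0.002 log2 and left 2 untied. Of the symbols, 17757 were current in RefSeq (GRCh38.p14), 2733 were updated and 14197 kept.

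Signal intensities were background-corrected (normexp, offset 16), quantile-normalized and log2-transformed in limma 3.58.1 (R 4.3.3). A probe entered if its detection p was under 0.05 on 3 or more arrays, and each gene was read from its brightest probe on average. A linear model over all 36 arrays with a mean per group, and moderated two-sided tests with a trended prior, gave p-values adjusted by Benjamini-Hochberg over 22848 genes, called under 0.05. The fit was tested on simulated data. An "at least" fold compares the brighter group's mean with the lowest signal detected on the dimmer group's arrays, or the gene's own where that is higher.

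Genes named came from role lists, from the 30 largest rises and falls, and from the 15 largest differences each way between conditions, among genes above background on all 3 arrays of the higher group. The 2 microRNA genes are exceptions. The members and lists were chosen with earlier results of these data known, and genes whose calls changed under an alternative were in part left out, as the closing section lists. Same-numbered NC day 11 and day 0 arrays deviated from their group means with correlations of 0.131, -0.058 and 0.098, and were not taken as paired. Those of NC and DSi (0.157 to 0.225) and of BE and NC (0.156 to 0.206) were above those of differently numbered arrays, at most -0.055 and -0.018. Same-numbered arrays of these conditions thus moved together, but all values given between them come from the fit without a replicate block. With the block 2830 and 2300 genes passed limma's test, against 2538 and 2000 without it. Alternatives were another scaling, the authors' processed values, no background correction, another offset, other detection filters, the mean of a gene's probes, fewer arrays in the fit, an untrended prior, a replicate block and leaving out each array. Some genes are not reported here.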

Additional observations from a re-analysis of the deposited data

Results flagged for a closer look

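A small number of genes lay above day 0 in NC and below it in another condition at day 11, or the reverse, with both calls and the difference between conditions passing limma's test. Of all 22848 genes tested, 93 (0.407%) had such opposite calls in NC and DSi, 54 of them higher in NC and 39 lower, and 66 (0.289%) had them in NC and BE, 29 higher in NC and 37 lower. Among the genes described here this held for 3. INSM1, a zinc finger factor of newborn neurons and endocrine cells, was higher than day 0 by 2.56 in NC and stood at -2.01 in DSi, a difference of 4.56 (adjusted p = 2.82e-18), and at -1.93 in BE, a difference of 4.49 (adjusted p = 8.47e-18). ERBB3 was higher by 1.41 in NC and stood at -2.27 in DSi, a difference of 3.68 (adjusted p = 2.03e-15). SOX21, a SoxB factor of neural progenitors, went the other way, at -2.18 in NC and 3.18 in DSi, a difference of -5.36 (adjusted p = 7.07e-20). All values are log2 differences from the same 3 day 0 arrays.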

How the results depend on the processing

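The count of genes that differed between NC day 11 and day 0, 6715, lay between 5279 and 7078 under the alternatives tried, and between 5684 and 6074 when 1 array was left out. When arrays were scaled to a common median and not quantile-normalized, 2204 were higher and 3075 lower, which put 41.8% of the calls on the higher side in place of 51.0%. The NC against DSi count of 2538 fell to 1570 with median scaling (923 higher, 647 lower) and to 1683 with those 6 arrays alone in the fit, and lay between 2033 and 2301 without 1 array. The BE against NC count of 2000 lay between 1453 and 1710 without 1 array, and median scaling moved its higher share from 53.5% to 66.6% (935 higher, 468 lower). The cause of these shifts was not tested.

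With the replicate number as a block the 3 counts were 7078, 2830 and 2300. NGFR passed the test with the block (adjusted p = 0.0494).

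For 255 genes the difference between NC day 11 and day 0 was recomputed under up to 16 alternatives, 4063 values in all. Of these 4005 kept their side of the threshold, and with it their direction where the gene was called in the main fit. For genes not called there, a change of sign without a call was counted among the 4005. Another 39 values of 10 genes lost the call and 17 values of 8 genes gained one. Of these 255 genes 12 were examined and then left out of the report because a call or direction changed: the calls of CBX2, CDKN1B, COL4A2, MDM2 and PTBP1 were lost, those of APOE, B2M, CD200, ETS1, JAG1 and UTP20 were gained under at least 1 alternative, and NRP1 turned to 0.065 on the authors' processed values and 0.26 with the mean of its probes. The report's genes are in that respect a steadier selection than the lists they come from.

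The number of arrays, 3 a group, limits precision, and a signal at background gives only a bound on a fold.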

Other observations

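Among the genes with the largest rises at NC day 11 were several outside the groups described above. TAGLN3, a cytoskeletal protein of neurons, measured 4.73, 4.93 and 5.76 on the day 0 arrays and 10.52, 11.06 and 11.13 on the NC day 11 arrays, far above day 0 on every array, and rose by 5.76 (SE 0.29, 2 of 3) (adjusted p = 1.48e-20). TENM4, a teneurin that mediates cell contacts in the nervous system, rose by 5.09 (SE 0.25, 1 of 3), the transcriptional repressor ZNF503 by 5.38 (SE 0.34, 1 of 3), the transcription cofactor DACH1 by 4.83 (SE 0.22, 2 of 3) and NCALD, a neuronal calcium sensor, by 4.76 (SE 0.22, 2 of 3). PPP1R17, an inhibitor of protein phosphatases, and KANK4 were at least 18.1-fold and at least 38.5-fold higher. The genes differed in how they compared with DSi: PPP1R17 was at least 18.2-fold higher in NC than in DSi, where it was at background on all arrays, while NCALD and ZNF503 stood at -0.20 (SE 0.22) and 0.15 (SE 0.34) and neither passed the test. Of 25 placode genes 9 rose and 2 fell against day 0, with a median of 0.54.

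Of 23 tested genes for solute carriers and polarised transport 10 fell and 3 rose, with a median of -0.28. Several of the largest falls lay outside the described groups. SCNN1A, a subunit of the epithelial sodium channel, and RAB17, a trafficking protein of polarised cells, were at least 16.7-fold and at least 17.7-fold lower. GLIPR1L1 measured 10.61, 10.59 and 10.39 on the day 0 arrays and 4.35, 4.53 and 4.48 on the NC day 11 arrays, at background on all NC day 11 arrays, and was at least 42.2-fold lower. The cytochrome CYP2S1 fell by 5.44 (SE 0.20, 2 of 3), uridine phosphorylase UPP1 by 4.63 (SE 0.26) and the long non-coding RNA gene UCA1 by 5.46 (SE 0.22). Of 25 heat shock and chaperone genes 3 rose and 4 fell (28.0% called, near the 29.4% of all genes), with DNAJC12, a co-chaperone, up by 3.38 (SE 0.27, 2 of 3) and HSPA2 down by 2.17 (SE 0.27, 1 of 3). Of 30 lysosome and autophagy genes 2 rose and 7 fell against day 0, whereas in BE 12 were higher and 0 lower than in NC (median 0.59).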
